A study of Rattus norvegicus with 20 samples.

Results

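The immediate early genes are a set of 10 genes: Fos, Fosb, Jun, Junb, Jund, Egr1, Egr3, Atf3, Ccn1 (listed on the array as Cyr61) and Ccn2 (listed as Ctgf). They were found by gene name among the 41012 probes of a rat whole-genome array and are represented by 13 probes, 3 for Jund, 2 for Ccn1 and 1 for each of the others. They make up 10 of the 24217 genes tested. RNA came from the fetal testes of Han Wistar rats whose dams were gavaged once a day over gestation days 12 to 19. The 5 groups were corn oil alone (control), di(2-ethylhexyl) phthalate (DEHP), its monoester mono(2-ethylhexyl) phthalate (MEHP), tris(2-ethylhexyl) trimellitate (TOTM), and a compound labelled EHO, each compound at 500 mg/kg. Each group had 4 one-colour arrays, and each array carried pooled testes of at least 3 pups of 1 litter. Each group lay on a slide of its own, scanned on its own, so the effect of a compound and that of a slide or scan cannot be told apart.

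Immediate early genes are switched on within minutes of a stimulus such as a growth factor, a hormone or tissue stress, from proteins already in the cell, and their transcripts are short-lived. Serum response factor with ELK proteins at CArG boxes and CREB at cyclic AMP response elements are among the factors that start their transcription. Fos and Jun proteins pair to form AP-1, EGR proteins bind GC-rich sites, and ATF3 pairs with other bZIP proteins. CCN1 and CCN2 are secreted matrix proteins whose genes are well-known targets of YAP and TEAD factors. In Leydig cells, the steroid-making cells of the testis, several of these genes respond to luteinizing hormone and cyclic AMP.

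The promoters are shown for exact matches to motifs that these factors read. A member without a match in its window is not thereby shown to lack the element. Of the 10 genes, 6 had a window in RefSeq's promoter table (build GRCr8, 250 bases before to 50 after the start): Fosb, Junb, Jund, Egr1, Ccn1 and Ccn2. Motifs were searched on both strands, and capitals mark the matches; positions count bases before the start. Egr1 held 2 CArG boxes (CC, 6 A or T, GG), at 105 to 96 and 83 to 74 (chr18:26736958-26737017, + strand). A CArG box was in 1.64% of all 33469 windows.
Egr1: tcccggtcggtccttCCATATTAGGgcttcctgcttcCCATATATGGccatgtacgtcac
Ccn1 held 1 TEAD motif (CATTCC), at 113 to 108, and Ccn2 held 3 on the other strand, where it reads GGAATG, at 166 to 161, 101 to 96 and 92 to 87. This motif was in 14.2% of all windows. The stretches shown are chr2:237225690-237225889 (- strand) for Ccn1 and chr1:22624615-22624814 (- strand) for Ccn2.
Ccn1: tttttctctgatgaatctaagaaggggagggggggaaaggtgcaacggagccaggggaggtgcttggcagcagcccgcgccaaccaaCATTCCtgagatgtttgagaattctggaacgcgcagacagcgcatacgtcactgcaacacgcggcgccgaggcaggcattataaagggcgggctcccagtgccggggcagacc
Ccn2: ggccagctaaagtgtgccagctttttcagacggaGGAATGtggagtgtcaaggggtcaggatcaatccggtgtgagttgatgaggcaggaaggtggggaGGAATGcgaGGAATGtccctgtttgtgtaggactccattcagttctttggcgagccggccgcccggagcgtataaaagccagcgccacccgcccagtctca
Jund held 1 cyclic AMP response element (TGACGTCA), at 221 to 214, which was in 1.83% of all windows (chr16:18769921-18770021, - strand).
Jund: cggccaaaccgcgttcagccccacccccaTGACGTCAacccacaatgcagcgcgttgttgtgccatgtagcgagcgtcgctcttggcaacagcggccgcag
The AP-1 motif (TGANTCA, in 7.33% of all windows) and the EGR motif (GCGGGGGCG, in 2.73%) were in none of the 6 windows, and Fosb and Junb held none of the 5 motifs. The cyclic AMP response element does not match TGANTCA, so these counts do not overlap.

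A level here is the log2 of the array's processed signal minus the 75th percentile of that array, so 0 is the 75th percentile and 1 unit is a doubling. Levels are compared for one probe between arrays and never between probes. A difference is the mean of one group minus that of another on this log2 scale, given with its standard error, and a gene was called at a Benjamini-Hochberg adjusted p below 0.05 in limma's test over all genes. Probe positions, as the array files list them for build rn4, were for example chr6:109561099-109561158 for Fos, chr19:24832781-24832840 for Junb, chr5:115358764-115358823 for Jun and chr2:243824388-243824447 for the tested Ccn1 probe; exon annotation of that build was not used here. All 10 members passed the filter on dim probes, and 7 were well above background on all 20 arrays. The exceptions were Fos, Egr3 and Atf3.

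Several arrays stood apart. MEHP replicates 1 and 2 differed by 0.76 times the spot noise, against a median of 2.22 times over array pairs of 1 group, and were averaged and counted as 1 sample, which leaves 3 MEHP samples. MEHP replicate 3 differed from Control replicate 2 by 1.24 times the noise and MEHP replicate 4 from DEHP replicate 3 by 1.32 times. These pairs were the closest across groups. Many other pairs across groups also lay under that median, such as Control replicate 3 with TOTM replicate 1 (1.54). Probes well above background made up 45.5% and 49.8% on EHO replicates 1 and 2, 62.0% and 63.0% on EHO replicates 3 and 4, and 63.5% to 79.4% on the other 16 arrays. Spots flagged as outliers numbered 539 to 551 on the control arrays, 78 to 144 on the DEHP, MEHP and TOTM arrays, and 66 to 91 with EHO. With flagged spots kept, 76 genes were called with DEHP and 105 with TOTM against control, instead of 1 and 2. Testis genes were detected: Amh, Cyp11a1, Hsd3b1, Insl3 and Ddx4 (Sertoli, Leydig and germ cell genes) were well above background on all 20 arrays. Sox9, a Sertoli gene, was so on 19, and Dazl was not measured. Pax2, a mesonephric duct gene, and the erythroid genes Hbb and Alas2 were also well above background on all 20 arrays. In pooled testis, fewer cells of a type and less RNA per cell cannot be told apart. The labels do not say that each array came from a different litter, so p-values measure the spread between these pools, which may be technical.

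**Figure D1:**
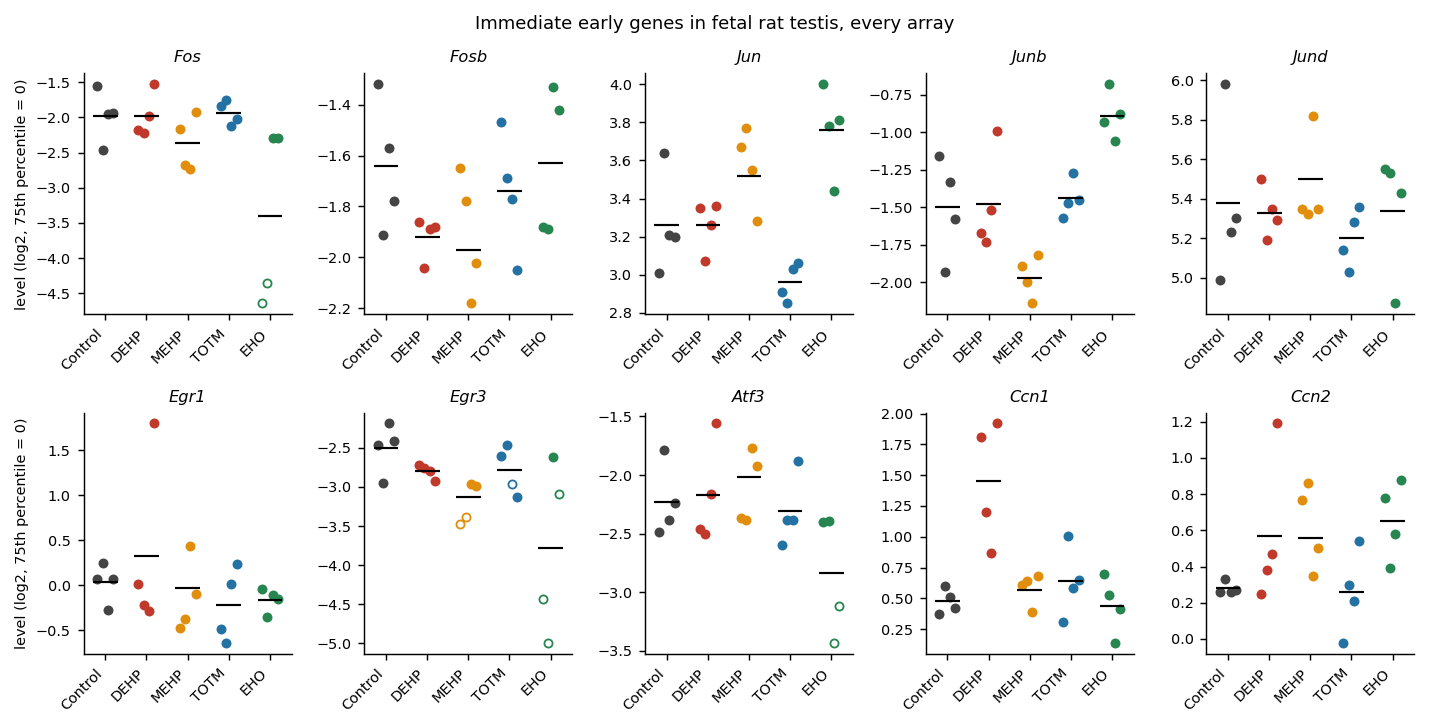
Level of each immediate early gene on every array (y axis, log2, the array's 75th percentile is 0; each panel has its own scale) in the 5 groups (x axis). Points are arrays in the order of replicates 1 to 4, open where the probe was not well above background, and bars are group means over 4 samples (3 for MEHP). Junb on all 4 EHO arrays lay above every control array, Ccn1 on all 4 DEHP arrays lay above every control array, and Fos was open on EHO replicates 1 and 2.

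Against corn oil, members were called with EHO alone, in both directions. The median difference of the 10 there was -0.04, against -0.18 for all genes. With EHO, 4 of the 10 were called, among 24.8% of all genes called in that comparison (6.45% higher and 18.3% lower). The AP-1 subunit genes Jun and Junb rose, and Fos and the zinc finger factor gene Egr3 fell. None of the 10 was called with DEHP (0.00418% of all genes called), MEHP (0.946%) or TOTM (0.00837%). At an unadjusted p under 0.05 there was 1 member with DEHP (Ccn1), 1 with MEHP (Junb), 0 with TOTM and 5 with EHO. A share of 4 in 10 is to be read beside the 24.8% of the whole array.

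**Figure D2:**
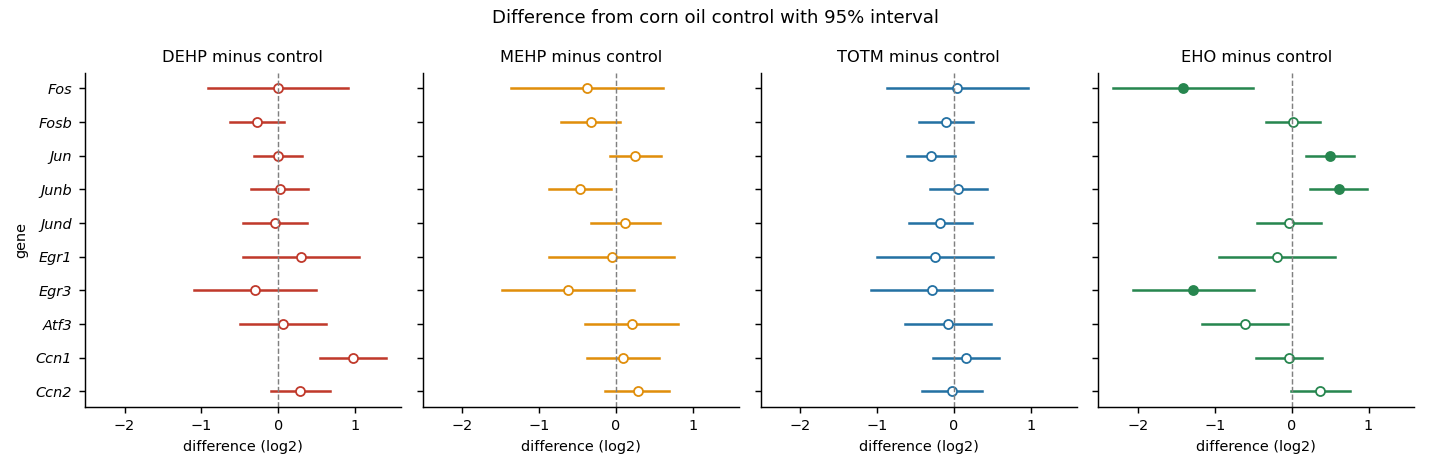
Difference of each compound group from control (x axis, log2) for the 10 genes (y axis), with points at limma's estimate, bars for the 95% interval, and filled points for adjusted p below 0.05. The 4 filled points are all in the EHO panel, 2 above and 2 below 0; the Ccn1 interval with DEHP, 0.54 to 1.41, lies above 0 but the point is open.

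Fos encodes the founding AP-1 subunit that pairs with Jun proteins. Its levels were -1.55, -2.47, -1.96 and -1.94 on Control replicates 1 to 4, and -4.64, -4.35, -2.30 and -2.29 on EHO replicates 1 to 4. On EHO replicates 1 and 2 the probe was not well above background, while EHO replicates 3 and 4 lay within the control range. Over the other groups Fos ranged from -2.22 to -1.53 with DEHP, -2.73 to -1.93 with MEHP and -2.13 to -1.75 with TOTM. The EHO difference was -1.42 ± 0.43 (SE, n = 4 against 4, limma adjusted p = 0.0358), and the groups overlapped. With dim arrays set to the lowest signal measured well above background, the bound was at least 1.47-fold lower. EHO replicates 1 and 2 are the same arrays on which 39.1% and 22.2% of all genes lay more than 0.5 below the mean of the other EHO arrays. Without both of them the Fos difference was -0.32 (adjusted p = 0.583).

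Fosb, a second Fos family subunit, was not called in any of the 10 comparisons. It read -1.32, -1.91, -1.57 and -1.78 on the control arrays and -1.88, -1.89, -1.33 and -1.42 on the EHO arrays. The EHO group thus split into its first and second pair of arrays, and its difference from control was 0.01 ± 0.17 (adjusted p = 0.959). That value depended on the scaling: it was 0.38 with quantile normalization (adjusted p = 0.0373), 0.54 with median scaling (adjusted p = 0.0279) and -0.13 with the percentile over detected probes. The lowest group means were those of DEHP (-1.92 ± 0.08, SD, n = 4) and MEHP (-1.97 ± 0.24, SD, n = 3), against -1.64 ± 0.26 in control (SD, n = 4). Neither difference, -0.27 and -0.33, was called.

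Jun encodes the main AP-1 partner of Fos, and its probe is repeated at 10 spots per array. Jun read 3.01, 3.64, 3.21 and 3.20 in control and 4.0, 3.78, 3.44 and 3.81 with EHO. The lowest EHO array lay below Control replicate 2 and above the other 3 controls. The difference was 0.50 ± 0.15 (adjusted p = 0.0336). On MEHP arrays Jun read 3.67, 3.77, 3.55 and 3.28, and on TOTM arrays 2.91, 2.85, 3.03 and 3.06. The TOTM arrays were the lowest as a group, but the difference from control, -0.30 ± 0.15, was not called (adjusted p = 0.607), nor was that of MEHP, 0.25 ± 0.16 (adjusted p = 0.976).

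Junb encodes a Jun protein that is a weaker activator than Jun. It read -1.16, -1.93, -1.33 and -1.58 in control and -0.93, -0.68, -1.06 and -0.88 with EHO, so every EHO array lay above every control array. That separation was seen in 13.3% of all genes. The difference was 0.61 ± 0.17 (adjusted p = 0.0309). MEHP arrays lay at the other end, at -1.89, -2.00, -2.14 and -1.82, with a difference from control of -0.47 ± 0.19 that was not called (limma adjusted p = 0.684). DEHP replicate 4, at -0.99, stood above the other DEHP arrays (-1.73 to -1.52).

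Jund, the Jun gene that is made steadily rather than in bursts in most cells, was not called in any comparison. Its tested probe gave group means from 5.20 ± 0.15 with TOTM (SD, n = 4) to 5.50 ± 0.27 with MEHP (SD, n = 3), and neighbouring groups in that order overlapped. The lowest level was 4.87 on EHO replicate 3, against 5.43 to 5.55 on the other EHO arrays. The highest levels were on 2 arrays, Control replicate 2 at 5.98 and MEHP replicate 3 at 5.82. They are the same 2 arrays that lay close to each other over all probes. The second Jund probe, 629 bases further towards the 5′ end of the gene, read -0.97 and -1.26 on these 2 arrays and -0.28 to 0.87 on the other 18. The gap between both probes was 6.95 and 7.08 on these arrays against 4.41 to 5.78 elsewhere. For Ccn1, whose second probe lies 534 bases further 5′, the gap was 2.47 and 2.21 against 0.89 to 2.19. There MEHP replicate 3 lay barely above EHO replicate 1 (2.19), so the 2 arrays stood out less clearly than for Jund. The part of these gaps in any group difference was tested only by leaving out arrays. The third Jund probe is listed on the opposite strand, ranged from -0.04 to 0.80 over the 20 arrays, and was called in no comparison.

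The early growth response genes did not move together. Egr1, a zinc finger factor gene that also controls luteinizing hormone in the pituitary, had a probe repeated at 10 spots. It read 0.07, 0.25, -0.28 and 0.07 in control and 0.01, -0.22, -0.29 and 1.80 with DEHP. DEHP replicate 4 was the highest of all 20 arrays, and the other 3 DEHP arrays lay below the control median. The DEHP difference was 0.30 ± 0.36 with all arrays and -0.20 ± 0.22 without replicate 4, and neither was called. MEHP, TOTM and EHO differed from control by -0.05, -0.25 and -0.19, each with a 95% interval that includes 0.

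Egr3, a related factor gene downstream of growth factor signals, read -2.46, -2.95, -2.19 and -2.42 in control. With EHO it read -4.43, -4.99, -2.62 and -3.09, of which only replicate 3 was well above background. The difference was -1.28 ± 0.37 (adjusted p = 0.0325), the groups overlapped, and the bound was at least 1.16-fold lower. Without EHO replicates 1 and 2 it was -0.35 (adjusted p = 0.486). MEHP arrays, at -3.47, -3.39, -2.96 and -2.99, of which replicates 1 and 2 were not well above background, all lay just below the control range, as 10.1% of all genes lay to one side, and the difference of -0.62 ± 0.40 was not called. With arrays weighted by quality, Egr3 (-0.63, adjusted p = 0.0268), Fosb (-0.40, adjusted p = 0.0293) and Junb (-0.42, adjusted p = 0.0424) were called lower with MEHP. That fit called 3734 of all genes, 2718 of them lower, against 226 in the main fit, 5 of them lower. The estimation of its weights stopped before the convergence tolerance was reached.

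Atf3 encodes a stress-induced bZIP repressor. It read -2.49, -1.79, -2.38 and -2.24 in control and -2.40, -2.39, -3.43 and -3.12 with EHO. The dim EHO arrays were replicates 3 and 4, whereas Fos was dim on replicates 1 and 2 and Egr3 on replicates 1, 2 and 4. The difference of -0.61 ± 0.26 was not called (adjusted p = 0.0861), except with the percentile taken over detected probes (-0.75, adjusted p = 0.0381). With DEHP the highest array was replicate 4, at -1.56, against -2.5 to -2.16.

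Ccn1, the matrix protein gene with 1 TEAD motif in the window shown above, had the largest difference of any member with DEHP. It read 0.37, 0.60, 0.51 and 0.42 in control and 1.81, 1.2, 0.87 and 1.92 with DEHP. Every DEHP array lay above every control array, as in 2.68% of all genes, and the difference was 0.98 ± 0.20, a 1.97-fold ratio. It was not called (limma adjusted p = 0.303 over all genes). The adjusted p ranged from 0.0587 to 1 over the alternatives, with differences of 0.75 to 1.17, and without DEHP replicate 4 the difference was 0.82 (adjusted p = 1). The second probe gave -0.17, -0.51, -0.91 and 0.14 with DEHP against -0.86, -1.87, -0.96 and -0.94 in control. There the difference was 0.80 ± 0.29 (limma adjusted p = 1 over all probes), and the groups overlapped. With MEHP, TOTM and EHO the tested probe differed from control by 0.09, 0.16 and -0.03. In the authors' deposited table, which lists only probes with a p up to 0.00999, both probes appear for DEHP with fold changes of 1.88 (p = 2.57e-05) and 1.84 (p = 0.00085), p-values that the table does not describe as adjusted.

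**Figure D3:**
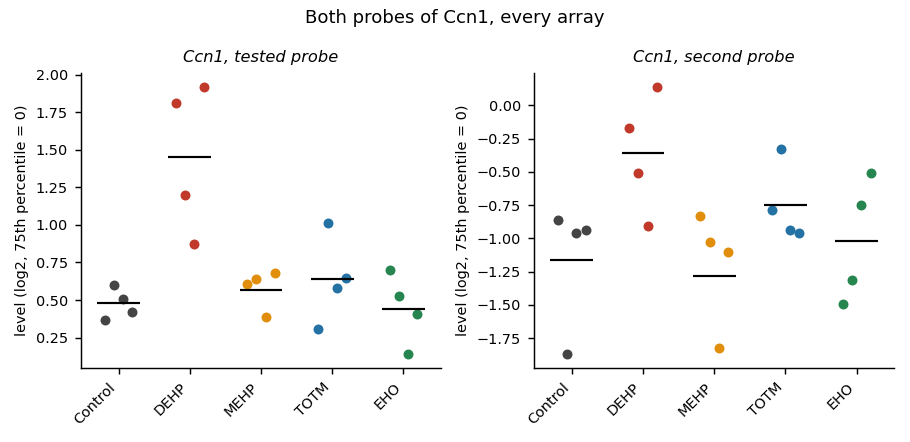
Level of the tested and the second Ccn1 probe (y axes, log2, the array's 75th percentile is 0) on every array of the 5 groups (x axis); points are arrays and bars group means. With DEHP the tested probe lay between 0.87 and 1.92, above all control arrays, and the second probe between -0.91 and 0.14, overlapping control by its lowest array.

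Ccn2, with 3 TEAD motifs in its window, had a narrow control group: 0.26, 0.33, 0.26 and 0.27. With MEHP it read 0.77, 0.86, 0.35 and 0.50, and with EHO 0.78, 0.39, 0.58 and 0.88. All MEHP and all EHO arrays lay above all controls, as 10.1% and 13.3% of all genes lay to one side in these comparisons. The differences, 0.28 ± 0.20 and 0.37 ± 0.18, were not called (adjusted p = 0.976 and 0.12), in a test that uses the spread of all groups. With median scaling the EHO difference was 0.90 (adjusted p = 0.0239) and was called. With DEHP it read 0.25, 0.38, 0.47 and 1.19, with replicate 4 far above the rest. The authors' deposited table lists Ccn2 for MEHP at a fold change of 1.4 (p = 8.11e-37).

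The authors' deposited table lists few other members. For its block headed EH, taken here as EHO, it gives fold changes of 1.43 for Fosb, 1.28 for Jun, 1.95 for Junb and 1.26 for Ccn2, all higher. It lists neither Fos nor Egr3 there. Of the Ccn1 probes, the authors' deposited table lists the second with EHO, at 1.46 (p = 0.00978), and with TOTM, at 1.42 (p = 0.00915). For Jun it gives 1.30 with MEHP and -1.27 with TOTM, and for Egr1 -1.4 with MEHP, where a minus marks a lower level.

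The 4 EHO calls depended on which arrays entered the fit, and those of Fos and Egr3 also on the normalization. Jun was no longer called without Control replicate 1, 3 or 4 or EHO replicate 1 or 2, with differences of 0.41 to 0.49 and adjusted p of 0.0553 to 0.11. Junb was no longer called without Control replicate 2 or 4 or EHO replicate 1 or 2 (0.47 to 0.62, adjusted p 0.0526 to 0.092). Fos (-1.41 to -1.0, adjusted p 0.0551 to 0.116) and Egr3 (-1.27 to -0.88, adjusted p 0.0573 to 0.102) lost their calls without Control replicate 1, 3 or 4 or EHO replicate 1 or 2. All 4 genes kept their direction in all alternatives run, but Fos and Egr3 shrank with other normalizations and lost their calls. With quantile normalization Fos was at -0.61 (limma adjusted p = 0.0627) and Egr3 at -0.66 (0.167). With normexp and quantile normalization Fos was at -0.17 (0.211) and Egr3 at -0.06 (0.606). Jun and Junb kept their calls in both. The median of all genes with EHO was -0.18, and median scaling moved it to 0.35. There Jun and Junb were at 1.02 and 1.14, above that median, and Fos and Egr3 at -0.89 and -0.75, below it. Of all genes called with EHO, 26.0% were higher. The share was 68.0% with median scaling, 44.8% with quantile normalization, 43.3% with normexp and quantile normalization, and 11.9% with the percentile over detected probes. At the main scaling it was 64% with the filter on all arrays and 63.9% without EHO replicates 1 and 2.

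Some markers of cell types were called in the EHO comparison too, where 6.45% of all genes were called higher and 18.3% lower. Of 6 measured markers of peritubular and interstitial cells (8 listed), 3 rose (Des, Nr2f2 and Lum), and their summed level, in units of the array's 75th percentile, was 43.8 to 63.0 with EHO against 31.8 to 44.7 in control. Of 6 measured fetal Leydig markers (7 listed), 1 fell (Lhcgr), and the summed level of the 5 measured on all arrays was 47.6 to 73.5 against 86.2 to 118 in control. Cyp11a1, Hsd3b1 and Insl3 stayed well above background on every array, whereas Lhcgr was so on only 2 of 4 DEHP and 2 of 4 MEHP arrays. The same Leydig sum was 44.1 to 58.9 with DEHP, 76.3 to 100 with TOTM, and 18, 18.8, 123 and 58.3 on the 4 MEHP arrays. On the other marker lists with EHO, 1 of 8 Sertoli and 1 of 5 mesonephric duct genes rose, and 1 of 5 macrophage genes fell. None of 5 gonocyte, 5 endothelial and 2 erythroid genes was called. The part of these markers in the immediate early gene differences was not tested.

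Between compounds, 6 pairs were compared for the 10 members at the one dose. The diester DEHP and its monoester MEHP differed in none (1.12% of all genes called). The Ccn1 difference, MEHP minus DEHP, was -0.88 ± 0.22 with a 95% interval of -1.35 to -0.42 (adjusted p = 0.077), and it was called without DEHP replicate 3 (-1.08, adjusted p = 0.0141). For Ccn2 the interval was -0.43 to 0.40 and for Fos -1.37 to 0.60, so differences within these intervals were not excluded. TOTM and DEHP differed in none of the members (0% of all genes called by limma, 729 genes and 1 member at an unadjusted p under 0.05). That member was Ccn1, at -0.81 ± 0.20 (adjusted p = 0.614). TOTM and MEHP also differed in none (1.52% of all genes called). There Jun came nearest, at -0.56 ± 0.16 (adjusted p = 0.107), with every TOTM array below every MEHP array, as 20.1% of all genes lay to one side.

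EHO differed from each of the other compounds in at least 1 member. Against DEHP, Ccn1 was lower by -1.01 ± 0.20 (adjusted p = 0.0103, with 6.62% of all genes called, 3.63% higher and 2.99% lower). Leaving out any 1 array kept this call, but with median scaling the difference was -0.58 (adjusted p = 0.169), and with these 2 groups fitted alone the adjusted p was 0.123. The second Ccn1 probe was not called, at -0.65 ± 0.29 (limma adjusted p = 0.115 over all probes). Its EHO arrays (-1.49 to -0.51) overlapped its DEHP arrays (-0.91 to 0.14). Against MEHP, Junb was higher by 1.08 ± 0.19 (adjusted p = 0.0241, with 0.281% of all genes called, 0.0785% higher and 0.202% lower), and the groups did not overlap, as in 11.9% of all genes. This call was lost without EHO replicate 1 (1.09, adjusted p = 0.0599) or 2 (1.01, 0.0577) or MEHP replicate 3 (0.99, 0.169) or 4 (1.15, 0.13).

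Against TOTM, 3 members were called, with 21.6% of all genes called (8.33% higher and 13.3% lower). Jun was higher by 0.80 ± 0.15 (adjusted p = 0.00282), Junb higher by 0.55 ± 0.17 (adjusted p = 0.039) and Fos lower by -1.46 ± 0.43 (adjusted p = 0.0318). For Jun all 4 EHO arrays (3.44 to 4.0) lay above all 4 TOTM arrays (2.85 to 3.06), as 19.3% of all genes lay to one side, and the call held in all 20 alternatives run for it, with adjusted p from 0.000213 to 0.041. The Junb call was lost without EHO replicate 1 or 2 or any 1 of the 4 TOTM arrays (0.48 to 0.61, adjusted p 0.0534 to 0.106). Fos was well above background on 2 of the 4 EHO arrays, and its bound was at least 1.51-fold lower. The Fos call was lost without EHO replicate 1 or 2 or TOTM replicate 1, 2 or 3 (-1.53 to -1.04, adjusted p 0.054 to 0.111), and without EHO replicates 1 and 2 together the difference was -0.36 (adjusted p = 0.529). The comparisons that share the EHO or the control arrays are not independent of each other.

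One pool carried much of the variation among the DEHP arrays. On DEHP replicate 4, 7 of the 10 members were at their highest within the group, against 19.1% of all genes. There 6 of the 10 lay more than 0.5 above the mean of DEHP replicates 1 to 3, against 1.68% of all genes. In order these were Egr1 (1.97), Ccn2 (0.82), Atf3 (0.81), Junb (0.65), Ccn1 (0.62) and Fos (0.59). The median of the members was 0.61 and that of all genes -0.09. Fosb, Jun, Jund and Egr3 lay between -0.16 and 0.14. No more than 3 of the members lay that far above the others of their group on any of the other 19 arrays. The array and the limit of 0.5 were chosen after the values were seen, so no test is given.

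**Figure D4:**
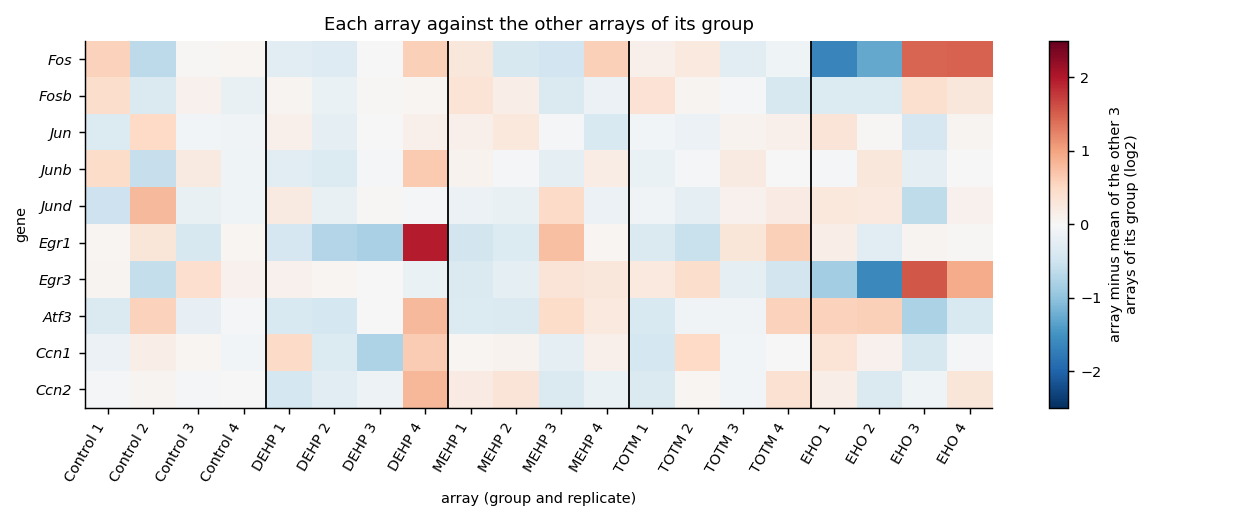
Level of each immediate early gene (y axis) on each array (x axis) minus the mean of the other 3 arrays of its group (log2, red above and blue below). The DEHP 4 column is above 0.5 for 6 of the 10 genes, with Egr1 at 1.97, and EHO arrays 1 and 2 are blue and 3 and 4 red for Fos and Egr3.

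Other early genes were high on the same DEHP array. Among early transcription factors, 3 of 16 measured lay more than 0.5 above the other DEHP arrays: Nfil3 (0.83), Nr4a1 (0.74), the orphan receptor gene induced by cyclic AMP in Leydig cells, and Ier2 (0.64). Among feedback genes, 4 of 19 did: Ier3 (0.79) and the phosphatase genes Dusp8 (0.68), Dusp1 (0.54) and Dusp5 (0.52). The heat shock genes, 7 of which were measured on every array, had a median of 0.45, with Hspa1a at 0.72 and the co-chaperone gene Dnajb1 at 0.55. Of 8 secreted and surface genes, Tnfrsf12a (0.59) did. Other genes of these lists lay more than 0.5 below: the chemokine gene Ccl2 (-1.37), the hypoxia gene Ddit4 (-0.87) and the kinase gene Sgk1 (-0.52) of the feedback list. The bZIP partners, kinases, CCN and TEAD genes and hypoxia genes had none above 0.5, and their medians lay between -0.10 and 0.10. The Leydig marker sum on this array, 44.1, was the lowest of the DEHP group, and 69.4% of its probes were well above background. The part of either in the pattern was not tested.

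**Figure D5:**
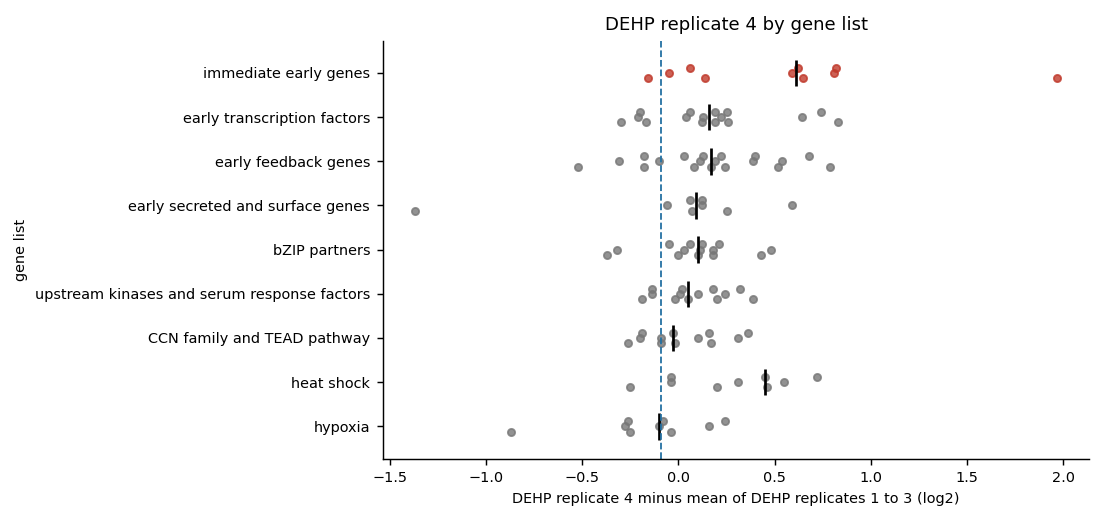
DEHP replicate 4 minus the mean of DEHP replicates 1 to 3 (x axis, log2) for each measured gene (points) of each list (y axis), with black bars at list medians and a dashed line at the median of all genes, -0.09. The immediate early genes have a median of 0.61, the heat shock genes 0.45, and the other lists -0.10 to 0.17.

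The wider pathway showed few calls against control. With DEHP, MEHP and TOTM none of the measured genes on 8 pathway lists was called. With EHO, 2 of 19 feedback genes rose: Dusp8, a phosphatase gene for stress kinases, by 2.05 ± 0.52 (adjusted p = 0.022), and Gadd45b, a stress-response gene, by 0.85 ± 0.16 (adjusted p = 0.00559). Of all genes, 6.45% were called higher there. For both, every EHO array lay above every control, as 13.3% of all genes lay to one side. No early transcription factor was called among 16 measured, and Fosl1, a Fos family gene, came nearest at -0.73 (adjusted p = 0.0902). The Fosl1 probe was well above background on 1 of 4 EHO and 3 of 4 control arrays.

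Of 8 measured early secreted and surface genes, 3 fell with EHO. Among them were Areg, an EGF receptor ligand gene (-1.09, at least 2.07-fold), and the cytokine gene Lif (-0.79, at least 1.73-fold). Each was well above background on 3 of 4 EHO arrays. The list median was -0.60, against -0.18 for all genes. Of 14 bZIP partners, 3 fell: Atf2 (-0.88), Batf (-0.69) and Batf3 (-0.58), with a median of -0.26. Elk1, the serum response factor partner, was the 1 of 13 kinases and serum response factors that fell (-1.22, at least 2.04-fold). It was well above background on 3 of 4 EHO arrays. Of 12 CCN and TEAD pathway genes, the YAP kinase gene Lats2 (-0.62) and Nov, a CCN family gene not well above background on any EHO array (at least 1.19-fold lower), fell, and Tead2 rose (0.37). None of 8 heat shock genes was called, Hspa1b coming nearest (-1.36, adjusted p = 0.0672). Its bound was at least 1.2-fold lower, with 2 of 4 EHO arrays well above background. Of 9 hypoxia genes, Pfkfb3 (-1.4, at least 1.98-fold) and Pdk1 (-0.47) fell and Egln3 rose (0.42). Pfkfb3 was well above background on 2 of 4 EHO arrays. Dim probes were frequent on EHO arrays, as above, and 18.3% of all genes fell.

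With the other compounds the largest difference on each list was not called. With DEHP these were Irf1 (0.40), Dusp4 (-0.29), Ccl2 (-0.36), Atf7 (-0.24), Map2k2 (0.38), Wisp1 (-0.27), Hspa8 (0.60, with 1 unflagged control array) and Ddit4 (-0.52), all with an adjusted p of 1. With MEHP they were Cebpb (-0.57, adjusted p = 0.271), Dusp8 (0.88), Plaur (-0.38), Atf2 (-0.34), Elk1 (-0.27), Yap1 (-0.60), Hspa1a (-0.41) and Ddit4 (-0.53). With TOTM they were Irf1 (0.50), Dusp8 (0.72), Ccl2 (-0.75), Batf3 (0.28), Map2k2 (0.49), Wisp1 (-0.80, adjusted p = 0.196), Hspa8 (0.63, again with 1 unflagged control array) and Adm (-0.60). Wisp1 is a CCN family gene, and every TOTM array lay below every control for it, as 7.11% of all genes lay to one side.

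Within groups, the members did not vary as one block. Over the 45 pairs of members, the median correlation of deviations from group means across 19 samples was 0.22, with 26 pairs above 0 and 19 below. By Pearson's r with a permutation test of 100000 draws, 5 pairs passed, each at an adjusted p of 0.0445: Jun with Jund (r = 0.81) and Jund with Atf3 (0.65) positive, and Fos with Jund (-0.61), Fosb with Jund (-0.72) and Fosb with Atf3 (-0.77) negative. By Spearman's rho, 0.72, 0.58, -0.68, -0.71 and -0.73 in that order, none of the 45 passed. Fos and Egr3 had r = 0.83 (permutation adjusted p = 0.212) and rho = 0.69 (permutation adjusted p = 0.169), and r was 0.32 without EHO replicates 1 and 2. Without the 2 samples farthest from the median of the first-named gene of each pair, the 5 values of r became 0.49, 0.41, -0.77, -0.65 and -0.73. Samples far out for the second-named gene were not sought by this rule. No pair passed without Control replicate 2, where Jund was highest, without EHO replicates 1 and 2, or with quantile normalization. Samples share the array's scaling and its quality.

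By the same measure, the genes most like each of the 7 members measured on all arrays were found among 4781 named candidates. Fosb was nearest to Prkce (r = 0.93), Jun to Tlnrd1 (0.90), Junb to RT1-CE7 (0.84) and Nfil3 (0.84), and Jund to Crip2 (0.96). Egr1 was nearest to Tmem178a (0.86) and Nr4a1 (0.72), Ccn1 to Slc38a9 (0.66) and Ccn2 to Sspo (0.79). Without DEHP replicate 4, Egr1 fell to 0.72 and 0.58 with its 2 nearest genes. These are descriptions over 19 samples, with no test.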

How the data were processed

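Fetal testis RNA from 20 pools was hybridised by the submitters to one-colour Agilent arrays (Cy3). The authors deposited scanner output with a processed signal intensity per spot, made with Agilent Feature Extraction 9.5.3.1 per the file headers (9.5 per the submitters' processing notes). They also deposited a table of signed fold-change scores with p-values, whose making is not given in the sources used here. From the processed signals, each array's 75th percentile over all 45018 spots that are not controls was subtracted on the log2 scale, spots flagged as outliers were left out, and repeated spots were averaged. A probe was kept (28133 of 41012) where all arrays of some group had it well above background, with the kept probe of highest mean level per gene name. Gene names are those of the array, updated through RefSeq symbols for 10768 probes. One fit over all 5 groups was made with limma 3.58.1 (R 4.3.3), 1 mean per group and no covariate, over 19 samples, with Benjamini-Hochberg adjustment over all genes within each of 10 comparisons. The fit was tested on simulated data. A probe dim on some or all arrays of a group has only a bound there, the bright group's mean against the higher of the lowest signal well above background and the probe's own. The number of arrays limits the precision. All 10 members are named in each comparison with control; from each pathway list up to 4 called genes with the largest difference are named, or the 1 largest where none was called (1 called gene is not reported here); and up to 3 like genes per member. Members and lists were chosen with earlier results of these data known. Alternatives covered scaling, background correction, filters, flags, probes, samples, array weights and the replicate block.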

Additional observations from a re-analysis of the deposited data

Results flagged for a closer look

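In 40 sets of 4 arrays (10 members in the control, DEHP, TOTM and EHO groups), 3 held an array whose gap to its nearest neighbour exceeded the share of the set's range given by Dixon's 95% critical value; chance gives about 1 in 20. Egr1 stood at 1.80 on DEHP replicate 4, against -0.29 to 0.01 on the other DEHP arrays. Fosb stood at -2.04 on DEHP replicate 2, in a group whose other arrays lay between -1.89 and -1.86. Ccn2 stood at 0.33 on Control replicate 2, in a group whose other arrays lay at 0.26 to 0.27.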

How the results depend on the processing

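No called member changed direction under any alternative run. With EHO against control, 4 members were called, and 6 with median scaling, 3 with quantile normalization, 2 with normexp and quantile normalization, 2 with the filter on all arrays (where Fos and Egr3 leave the test), 2 with the replicate block, and 0 with the arrays of both groups only, without EHO replicates 1 and 2 together, or with arrays weighted; leaving out 1 array gave 0 to 4. With EHO against DEHP (1 in the report), the count was 3, 4, 4, 2 and 3 with normexp, quantile normalization, median scaling, the percentile over detected probes and the filter on all arrays, 0 with both groups only, 2 with arrays weighted, and 1 to 5 without 1 array. With EHO against MEHP (1), it was 2 with quantile normalization, 3 with arrays weighted, 0 with median scaling, detected probes, both groups only, without MEHP replicates 3 and 4 or without EHO replicates 1 and 2, and 0 to 2 without 1 array. With EHO against TOTM (3), it was 5 with median scaling, 1 with both groups only and 1 without EHO replicates 1 and 2, and 1 to 4 without 1 array. MEHP against DEHP and TOTM against MEHP went from 0 to 1 with normexp, with the filter on all arrays and with MEHP 1 and 2 kept separate; weighting gave 1 and 4. TOTM against MEHP was also 1 with quantile normalization, and MEHP against DEHP was 0 to 1 without 1 array. MEHP against control was 3 with weights, whose estimation stopped before its convergence tolerance was reached. Correlated pairs went from 5 to 0 with quantile normalization, without EHO replicates 1 and 2, and, chosen after seeing the data, without Control replicate 2. The cause of these changes was not tested, except that smaller fits hold fewer samples. Replicate numbers did not pair samples: deviations of same-numbered samples from control correlated between -0.683 and 0.464, and the replicate block changed the EHO against control count to 2 (0 higher, 2 lower). Calls over all genes ranged from 0 to 76 with DEHP, 92 to 3734 with MEHP, 0 to 105 with TOTM and 3 to 10470 with EHO, against 1, 226, 2 and 5920. Signal near background limits Fos, Egr3 and Atf3 on EHO arrays, and Egr3 on MEHP replicates 1 and 2 and TOTM replicate 3.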
